A study of Mus musculus with 12 samples.

Results

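The genes described here make, activate, insert and take up docosahexaenoic acid (DHA) and the very long chain fatty acids made by the same elongases. They were chosen by name, but with earlier results of these data known. The list held Elovl4, Elovl2, Elovl5, Fads1, Fads2, Acsl6, Agpat3, Mfsd2a, Lpcat1 and Adipor1. All 10 were found in the deposited gene table, which held 53707 genes, and all 10 passed the filter on low counts together with the 21061 genes tested. RNA-seq was performed on retinal explants, which are retinas dissected free of the sclera and pigment epithelium and kept alive in culture medium, from wild-type C57BL/6J mice at postnatal day 28. The explants were kept for 48 hours in Neurobasal-A medium with B27 and N2 supplements and either 5 mM or 25 mM glucose. Each concentration had 3 biological replicates with 2 technical replicates each (12 libraries), of which the first formed batch 1 and the second batch 2. Cultured explants have lost their blood flow and their contact with the pigment epithelium, and the labels do not say whether retinas were pooled. What the technical replicates share was not stated, and p-values measure the spread between the 6 summed samples.

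DHA is the most abundant omega-3 fatty acid of photoreceptor outer segments, where it sits in the phospholipids of the disc membranes. Cells can make it from shorter dietary precursors by alternating steps of desaturation (Fads2, then Fads1) and elongation (Elovl5 and Elovl2), followed by shortening in peroxisomes, or they can take it up preformed. Acsl6 couples it to coenzyme A, lysophospholipid acyltransferases such as Agpat3 place it into membrane lipids, and Elovl4 extends fatty acids to the very long chains that photoreceptors contain.

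The question was whether the RNA of these genes differed between explants kept in high and in low glucose. Elovl4 and Elovl2 had the largest differences towards 25 mM glucose, 2.67-fold (95% interval 1.67 to 4.27) and 2.16-fold (1.46 to 3.20), and Acsl6 and Lpcat1 were also higher in all 3 replicates at 25 mM. Both DHA desaturases, Fads1 and Fads2, and the elongase Elovl5 were lower in all 3 replicates at 25 mM. Nevertheless, 0 of the 10 genes passed a false discovery rate (FDR) under 0.05 in the quasi-likelihood test of edgeR, adjusted over all genes tested, against 1.98% of all genes (1.47% higher and 0.513% lower at 25 mM). At an unadjusted p under 0.05 there were 8 of the 10 genes, and 6052 of the 21061 genes tested. The thresholds named by the study, an FDR under 0.01 with a fold change over 2, were also passed here by 0 of the 10 genes, against 0% of all genes. The study reported genes that passed these thresholds in the same comparison, so its own test gave other results than the one used here. The reason was not tested. The replicates of the 2 concentrations did not overlap for 7 of the 10 genes, 4 higher and 3 lower at 25 mM, whereas 31.8% of all genes had no overlap (16% higher and 15.8% lower). The median log2 fold change of the 10 genes was 0.21, beside -0.0095 for all genes tested, with 6 genes above 0 and 4 below.

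The count of calls depended on the method and on single samples. DESeq2 called 6 of the 10 genes at an FDR under 0.05 (Elovl4, Elovl2, Fads1, Fads2, Acsl6 and Lpcat1; 15.2% of all genes), of which Elovl4 and Elovl2 also passed the stricter thresholds (6.71% of all genes), while limma-voom called 0 of them. Treating the 12 libraries as separate samples, with a batch term, gave 7 of the 10 genes (15.6% of all genes), but this counts both libraries of a replicate as independent. Without 5 mM glucose replicate 1, edgeR called 6 of the 10 genes (Elovl4, Elovl2, Fads1, Fads2, Acsl6 and Mfsd2a; 26.6% of all genes), and without 25 mM glucose replicate 3 it called Elovl4 alone, with an FDR of 0.0480 (2.27% of all genes). Leaving out any of the other 4 replicates in turn gave 0 genes called in the whole table, with 6 of the 10 genes at an unadjusted p under 0.05 each time, against 17.6% to 18.8% of all genes. Replicates were also compared in pairs over the whole table, as their typical squared difference divided by that expected from count sampling. This ratio was 53.4 and 42.2 for 5 mM glucose replicate 1 against replicates 2 and 3, and 9.21 between replicates 2 and 3. Among the 25 mM replicates it was 16.6 to 20.8. What set 5 mM glucose replicate 1 apart was not tested.

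The genes lie on 7 chromosomes of the GRCm38 genome, and all are protein coding. Elovl4 (ENSMUSG00000032262) spans chr9:83778692-83806277 on the minus strand, and Elovl5 (ENSMUSG00000032349) lies on the same chromosome at chr9:77917364-77984519 on the plus strand. Elovl2 (ENSMUSG00000021364) spans chr13:41182381-41220405 on the minus strand, and Lpcat1 (ENSMUSG00000021608) spans chr13:73467197-73516422 on the plus strand. Fads2 (ENSMUSG00000024665, chr19:10062765-10101746, minus strand) and Fads1 (ENSMUSG00000010663, chr19:10182888-10196877, plus strand) are neighbours on chromosome 19, transcribed away from each other. Acsl6 (ENSMUSG00000020333) lies at chr11:54303798-54364756 (plus), Agpat3 (ENSMUSG00000001211) at chr10:78269178-78352489 (minus), Mfsd2a (ENSMUSG00000028655) at chr4:122946850-122961188 (minus) and Adipor1 (ENSMUSG00000026457) at chr1:134415378-134433351 (plus).

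RefSeq promoter windows (GRCm38.p6) were found for 9 of the 10 genes, with 13 windows in all. Fads1 was not matched. The 250 bases before the start are printed for Elovl4 and Elovl2, whose RNA varied together, for Elovl5 and Fads2, which were lower at 25 mM, and for Lpcat1. The windows are chr9:83806306-83806555 (minus strand) for Elovl4, chr13:41220404-41220653 (minus, the window farther upstream of a pair for this gene) for Elovl2, chr9:77917115-77917364 (plus) for Elovl5, chr19:10101504-10101753 (minus) for Fads2 and chr13:73466981-73467230 (plus) for Lpcat1. Capitals mark matches to 5 motifs on either strand: GGGCGG (GC box), CCAAT (the element bound by nuclear factor Y), CACGTG (an E-box), TAATCC (the core bound by the photoreceptor factors CRX and OTX) and TCACNCCAC (a sterol regulatory element). Matches may overlap, as a pair of GC boxes does in Elovl4.
Elovl4: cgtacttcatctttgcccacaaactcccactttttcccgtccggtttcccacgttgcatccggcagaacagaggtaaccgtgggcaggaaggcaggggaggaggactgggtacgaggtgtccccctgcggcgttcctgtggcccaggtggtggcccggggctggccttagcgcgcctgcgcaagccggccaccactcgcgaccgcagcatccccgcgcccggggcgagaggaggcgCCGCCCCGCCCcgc
Elovl2: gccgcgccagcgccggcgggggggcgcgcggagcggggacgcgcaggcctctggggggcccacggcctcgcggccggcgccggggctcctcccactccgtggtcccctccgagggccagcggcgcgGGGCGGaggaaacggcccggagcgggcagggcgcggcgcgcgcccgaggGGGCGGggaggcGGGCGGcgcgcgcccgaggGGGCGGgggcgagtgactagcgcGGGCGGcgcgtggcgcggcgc
Elovl5: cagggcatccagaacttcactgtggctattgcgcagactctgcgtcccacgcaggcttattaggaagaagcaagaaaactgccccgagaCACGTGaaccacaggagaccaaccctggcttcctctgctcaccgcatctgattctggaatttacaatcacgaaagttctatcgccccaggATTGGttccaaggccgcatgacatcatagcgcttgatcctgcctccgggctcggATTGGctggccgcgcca
Fads2: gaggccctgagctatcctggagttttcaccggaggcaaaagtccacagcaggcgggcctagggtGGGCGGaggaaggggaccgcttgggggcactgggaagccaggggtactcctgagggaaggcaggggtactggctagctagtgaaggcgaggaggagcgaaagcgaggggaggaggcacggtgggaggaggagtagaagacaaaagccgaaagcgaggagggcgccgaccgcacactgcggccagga
Lpcat1: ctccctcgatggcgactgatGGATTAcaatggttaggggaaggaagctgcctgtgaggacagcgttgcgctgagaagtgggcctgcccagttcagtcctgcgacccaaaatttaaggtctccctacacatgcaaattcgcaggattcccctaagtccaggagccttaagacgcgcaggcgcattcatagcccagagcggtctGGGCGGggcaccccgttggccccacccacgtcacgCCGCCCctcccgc
The GC box was present in windows of 6 of the 9 genes matched (Elovl4, Elovl2, Fads2, Acsl6, Lpcat1 and Adipor1). Counted by window, as some genes had more than 1, it was in 9 of the 13 and in 32.7% of all 32851 promoter windows of this length. The nuclear factor Y element occurred for 4 genes (Elovl5, Acsl6, Mfsd2a and Adipor1), in 5 of the 13 windows against 33.8% of all windows. An E-box occurred for Elovl5 alone (1 of the 13 windows, 6.0% of all) and the CRX and OTX core for Lpcat1 alone (1 of the 13, 6.3% of all). The letters of the sterol regulatory element were found in 0 of the 13 windows, against 1.1% of all windows. The windows are rich in G and C, with 69.6% in Elovl4, 87.2% in Elovl2, 55.6% in Elovl5, 64.8% in Fads2 and 60.8% in Lpcat1. Such matches describe the letters in the window and were not tested for binding.

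Among the elongases, Elovl4, which builds the very long chain fatty acids of photoreceptor membranes and is mutated in a dominant macular dystrophy, had 169, 94.4 and 98.8 CPM (counts per 1000000 counts of the library, scaled by TMM) in the 3 replicates at 5 mM glucose. At 25 mM it had 420, 307 and 238 CPM, so that every value lay above the 5 mM range. Its log2 fold change was 1.42 ± 0.30 (SE) with an FDR of 0.0526. Elovl2, which lengthens the precursors that become DHA, had 27.4, 21.4 and 17.4 CPM at 5 mM and 60.95, 40.8 and 41.3 CPM at 25 mM. The groups were again apart, by a log2 fold change of 1.11 ± 0.25 (FDR 0.0581). Elovl5, which acts earlier, on the product of Fads2, was on the other side. It had 81.1, 73.3 and 70.4 CPM at 5 mM and 54.5, 53.9 and 61.5 CPM at 25 mM, a log2 fold change of -0.40 ± 0.15 (FDR 0.135).

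Of the desaturases, Fads2 catalyses the first and slowest step of the synthesis and Fads1 the later one. Fads2 had 47.5, 69.1 and 61.8 CPM at 5 mM and 38.7, 28.3 and 39.0 CPM at 25 mM, with a log2 fold change of -0.75 ± 0.21 (FDR 0.0785). Fads1 varied less, with 97.0, 112 and 112 CPM at 5 mM and 71.0, 71.5 and 77.8 CPM at 25 mM. Its log2 fold change was -0.54 ± 0.15 (FDR 0.0762), and neither desaturase overlapped between the groups.

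**Figure D1:**
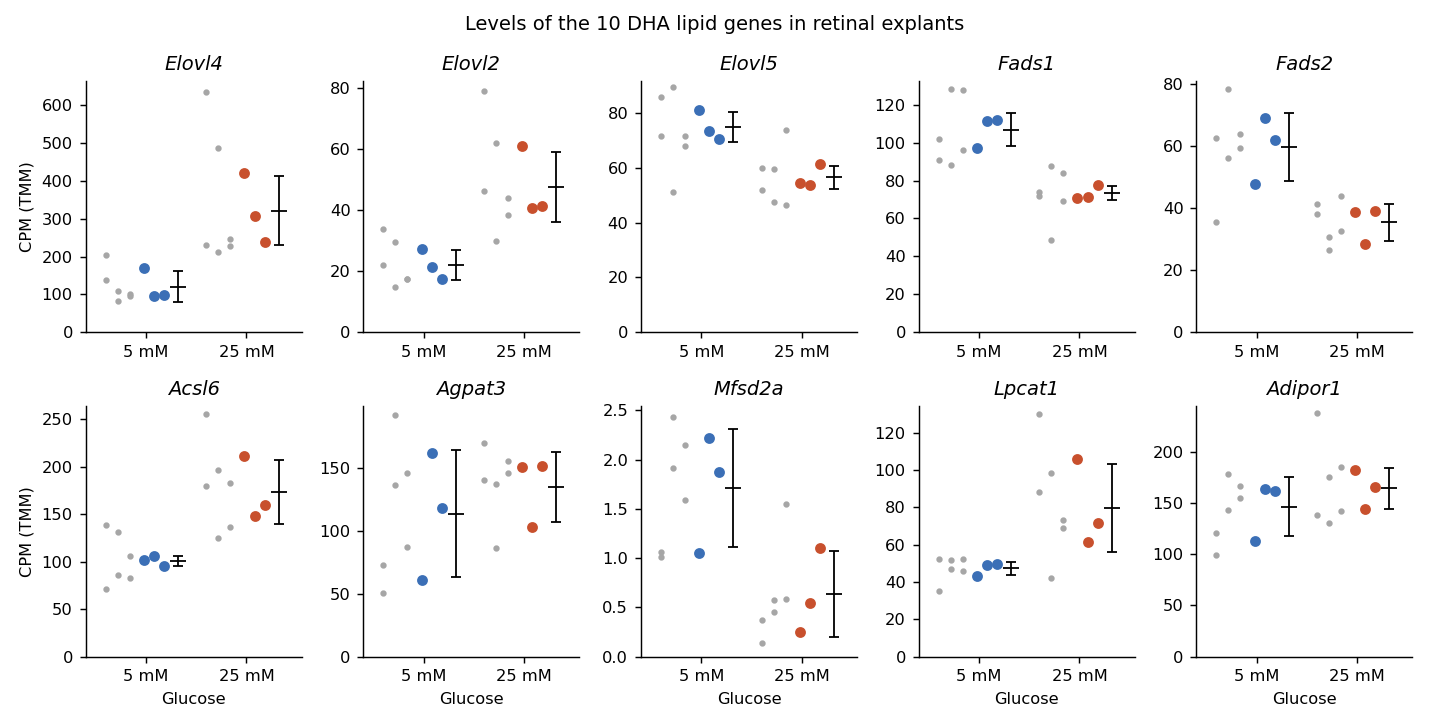
Levels of the 10 genes in CPM (TMM-scaled, each axis starting at 0) at 5 mM and 25 mM glucose; grey points are the 6 libraries of a group, in pairs for biological replicates 1 to 3, coloured points the 3 summed replicates, and the bars their mean with SD. The coloured points are apart for 7 genes and overlap for Agpat3, Mfsd2a and Adipor1.

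Acsl6 encodes the acyl-CoA synthetase that favours DHA in neural tissue. It had 101, 106 and 95.6 CPM at 5 mM and 211, 148 and 159 CPM at 25 mM, a tight group against a higher and wider one. The log2 fold change was 0.77 ± 0.18 (FDR 0.0622). Lpcat1, an acyltransferase that remodels phosphatidylcholine and whose loss causes photoreceptor degeneration in mice, showed the same arrangement with 43.2, 49.3 and 49.5 CPM at 5 mM and 106, 61.5 and 71.4 CPM at 25 mM. Its log2 fold change was 0.75 ± 0.22 (FDR 0.0863). Agpat3, the acyltransferase that places DHA into phosphatidic acid, had 60.9, 162 and 118 CPM at 5 mM and 151, 103 and 151 CPM at 25 mM. These values overlapped (log2 fold change 0.25 ± 0.34, FDR 0.643), and without 5 mM glucose replicate 1, the lowest sample, the log2 fold change was -0.055. On the opposite strand Acsl6 shares exons with Gm12224 and Agpat3 with Gm40709, and whether counting used the strand was not stated, so both are uncertain in principle. The antisense genes held between 0 and 2.52 counts per replicate, at most 0.0592% of the counts of their partner.

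Mfsd2a is the transporter that carries DHA, as a lysophospholipid, across the endothelium of brain and retina and into the pigment epithelium. It was the least abundant gene of the list, with 1.05, 2.22 and 1.87 CPM at 5 mM and 0.255, 0.547 and 1.11 CPM at 25 mM. The groups overlapped, since replicate 3 at 25 mM exceeded replicate 1 at 5 mM (log2 fold change -1.42 ± 0.53, FDR 0.131). Adipor1, a membrane receptor needed for the retinal store of DHA, had 113, 164 and 162 CPM at 5 mM and 183, 144 and 166 CPM at 25 mM. Its log2 fold change was 0.17 ± 0.20 (FDR 0.590), with an interval from 0.82-fold to 1.53-fold, so that a moderate difference in either direction was not detectable with these replicates. The exact two-sided permutation test on log2 CPM gave p = 0.1 for each of the 7 genes without overlap, and 0.2 for Mfsd2a, 0.7 for Agpat3 and 0.5 for Adipor1. The value 0.1 is the smallest that 3 against 3 samples allow, and any gene without overlap gets it. It thus only restates the lack of overlap, which 31.8% of all genes had.

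Within a sample, ratios of 2 genes do not depend on the library total. Elovl4 had 3.55, 1.37 and 1.60 counts for each count of Fads2 at 5 mM and 10.9, 10.9 and 6.11 at 25 mM. Set against Fads1, Elovl4 had 1.74, 0.845 and 0.883 counts per count at 5 mM and 5.91, 4.29 and 3.06 at 25 mM. Elovl2 had 0.338, 0.291 and 0.247 counts for each count of Elovl5 at 5 mM and 1.12, 0.757 and 0.671 at 25 mM. Each of these 3 ratios was separate between the concentrations. This followed from the choice of pairs, since each joins a gene higher without overlap to a gene lower without overlap. The ratios are thus a description and no further support, and other pairs were not examined.

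Both batches held all 6 biological replicates, so the difference between concentrations could be measured in each. The log2 fold change of Elovl4 was 1.55 in batch 1 and 1.37 in batch 2, that of Elovl2 1.46 and 0.84, that of Fads2 -0.90 and -0.62, that of Lpcat1 0.99 and 0.61 and that of Mfsd2a -1.85 and -1.13. Fads1 had -0.88 in batch 1 and -0.24 in batch 2. The difference of Elovl5 lay in batch 1, with -0.77 against -0.01 in batch 2, and Acsl6 had 1.19 against 0.44. Agpat3 (0.63 and -0.03) and Adipor1 (-0.06 and 0.47) changed sign. Tested within biological replicates by edgeR, the difference between batches in the effect of glucose had an unadjusted p under 0.05 for 3 genes. These were Acsl6 (0.0386), Elovl5 (0.0325) and Agpat3 (0.0259), with FDR between 0.255 and 0.282. Among all genes, 3056 of 18725 (16.3%) had an unadjusted p under 0.05 for this term and 0 an FDR under 0.05. In batch 1 alone 7 of the 10 genes were called at an FDR under 0.05, against 17.3% of all genes. In batch 2 alone 0 genes of the whole table were called. There 2 of the 10 genes had an unadjusted p under 0.05, against 11.7% of all genes, and 3 of the 10 were without overlap, against 16.1%.

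**Figure D2:**
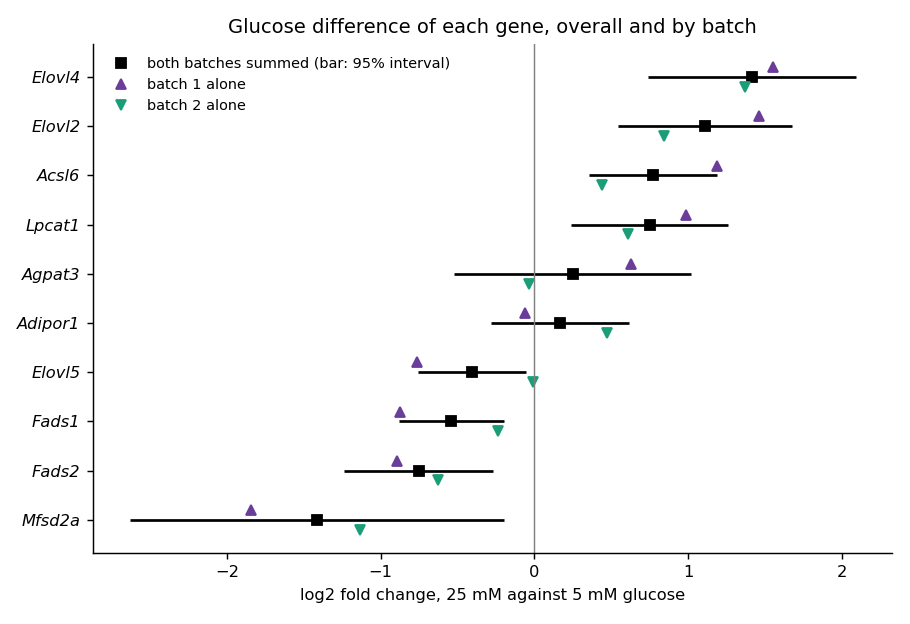
Log2 fold change (x axis, 25 mM against 5 mM glucose) of the 10 genes; squares with bars give the edgeR estimate and its 95% interval on summed technical replicates, and triangles the estimate in batch 1 or batch 2 alone. The intervals of Agpat3 and Adipor1 include 0, and the triangles of these 2 genes lie on both sides of 0.

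Single libraries of the same replicate differed widely for some genes. The 6 libraries of Elovl4 at 25 mM ranged from 211 to 637 CPM with a median of 238, and those at 5 mM from 81.9 to 204 with a median of 105. The highest was the second library of replicate 1 (637 CPM, first library 231), followed by the first library of replicate 2 (489 CPM, second library 211), and all 6 libraries at 25 mM lay above all 6 at 5 mM. Elovl2 had its highest values in the same 2 libraries, with 79.1 and 62.0 CPM, and the lowest of its 25 mM libraries (29.8 CPM) was below the highest at 5 mM (33.9 CPM). Across the 12 libraries the log2 CPM of Elovl4 and Elovl2 correlated with r = 0.95, those of Elovl2 and Acsl6 with 0.93, of Acsl6 and Lpcat1 with 0.91 and of Fads1 and Fads2 with 0.84. Negative correlations linked Elovl4 with Mfsd2a (-0.89) and Elovl2 with Fads1 (-0.85). These values describe 12 libraries that share 6 samples, 2 concentrations and 2 batches. Without the second library of 5 mM glucose replicate 1, which was chosen after its values were seen, 3 genes passed an FDR under 0.05 (Elovl4, Elovl2 and Acsl6), against 8.27% of all genes. The second library of 25 mM glucose replicate 1, the highest in Elovl4, was likewise chosen after its values were seen. Without it 0 of the 10 genes passed, against 0.919% of all genes, and Elovl4 had a log2 fold change of 1.115 (FDR 0.0707). An unadjusted p under 0.05 was reached by 8 of the 10 genes, against 25.6% of all genes.

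Levels were compared between genes per length, as TPM (transcript counts divided by length and scaled to a total of 1000000), computed from the transcript table. At 5 mM glucose the order was Adipor1 (89.8 ± 20.5 TPM, SD, n = 3), Elovl4 (74.9 ± 22.9), Fads1 (68.9 ± 6.4), Agpat3 (66.8 ± 31.2), Elovl5 (52.6 ± 3.0), Acsl6 (45.1 ± 3.6), Fads2 (36.7 ± 8.2), Lpcat1 (32.9 ± 4.0), Elovl2 (10.8 ± 2.2) and Mfsd2a (1.59 ± 0.64). The replicates of the first 4 genes overlapped with each other, and each following gene down to Lpcat1 overlapped with the gene before it except Acsl6, whose replicates lay below those of Elovl5. Elovl2 and Mfsd2a each stood apart from the gene above them. At 25 mM Elovl4 came first with 221 ± 77 TPM, and its lowest replicate (163 TPM) lay above the highest replicate of Adipor1 (131 TPM). It was followed by Adipor1 (110 ± 22), Acsl6 (85.6 ± 23.9), Agpat3 (85.3 ± 22.8), Lpcat1 (58.6 ± 20.9), Fads1 (51.4 ± 4.3) and Elovl5 (43.5 ± 4.5), in which each gene overlapped with the next. Elovl2 (25.8 ± 8.3 TPM) and Fads2 (23.7 ± 6.0 TPM) overlapped at 25 mM, and Mfsd2a remained last with 0.62 ± 0.39 TPM.

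**Figure D3:**
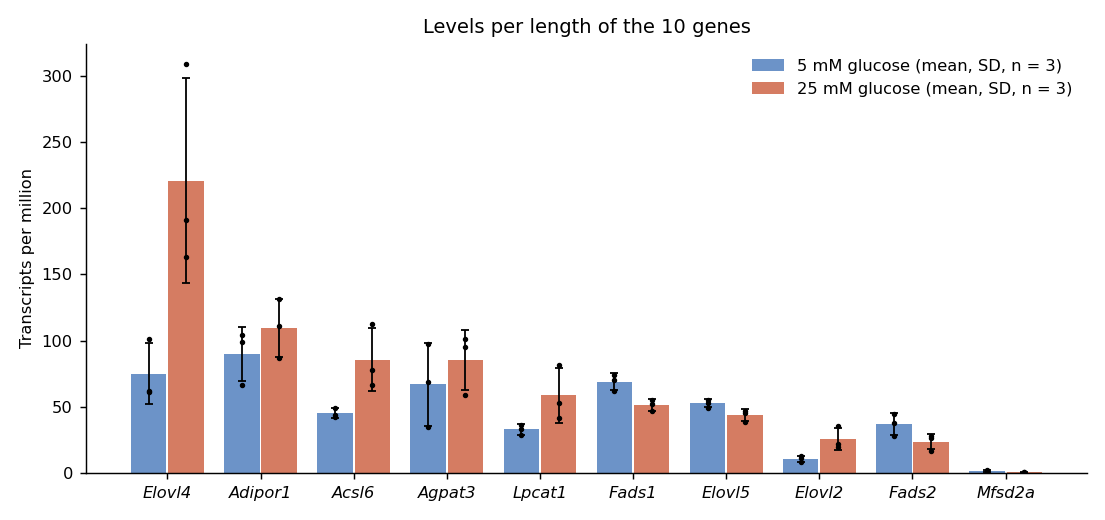
Levels per length (y axis, TPM, from 0) of the 10 genes in the order of their means at 25 mM glucose; bars give the mean of 3 biological replicates, error bars the SD and points the replicates. Elovl4 was second at 5 mM (74.9 TPM) and first at 25 mM (221 TPM).

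The transcript table held 63 transcripts of these genes, of which 35 passed the filter. At an FDR under 0.05, 0 of the 35 were called, as were 0 of all 64990 transcripts tested (0%, lowest FDR 0.0762), whereas 15 of the 35 and 10668 of all had an unadjusted p under 0.05. All counts of Elovl4 were assigned to 1 coding transcript, Elovl4-201 (3001 bases), and 98.4% and 98.7% of those of Elovl5 to Elovl5-201 at 5 mM and 25 mM. Elovl2 was divided between a pair of coding transcripts of similar length. The share of Elovl2-202 was 38.2%, 2.48% and 30.2% at 5 mM and 37.96%, 43.6% and 43.6% at 25 mM, so the groups overlapped. Acsl6-210 held on average 20.3% of the Acsl6 counts at 5 mM and 38.3% at 25 mM. Most counts of Lpcat1 (84.9% and 90.8% on average) were assigned to Lpcat1-202, which is annotated as a target of nonsense-mediated decay. The coding transcript Lpcat1-201 held 0%, 16.9% and 11.96% at 5 mM and at most 0.00277% at 25 mM. Assignment between such overlapping transcripts is an estimate.

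Transcripts annotated as retained introns took a small share of the counts. For Agpat3 the share was 1.55%, 1.78% and 1.26% at 5 mM and 4.53%, 4.01% and 3.83% at 25 mM. For Lpcat1 it was 5.82%, 3.12% and 6.07% at 5 mM and 10.3%, 9.26% and 7.15% at 25 mM. Both genes had higher shares in all 3 replicates at 25 mM. Fads1 had 1.41%, 1.74% and 1.73% at 5 mM and 3.31%, 2.01% and 2.18% at 25 mM, again without overlap. Adipor1 had 5.36%, 3.04% and 3.33% at 5 mM and 8.84%, 8.498% and 4.61% at 25 mM, and these overlapped. The shares are given as a description without a test and were not compared with those of all genes. Total RNA libraries also hold unspliced nuclear RNA.

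The other genes of the pathway were 66 genes in 7 lists, of which 64 were tested (Elovl3 and Acaa1b had too few counts). Of these, 16 had a positive and 48 a negative log2 fold change, with a median of -0.41. Without overlap, 5 were higher and 22 lower, against 16% and 15.8% of all genes. At an FDR under 0.05, 1 rose and 1 fell, against 1.47% and 0.513% of all genes. Lpcat2, a paralogue of Lpcat1 that is also an enzyme of platelet-activating factor synthesis, rose from 38.9, 26.9 and 27.6 CPM at 5 mM to 76.5, 63.3 and 65.5 CPM at 25 mM (log2 fold change 1.14 ± 0.20, FDR 0.0403). Scd1, the stearoyl-CoA desaturase, fell from 23.3, 25.5 and 21.6 CPM to 8.60, 11.7 and 10.3 CPM (log2 fold change -1.21 ± 0.21, FDR 0.0389). These 2 calls were absent when 5 mM glucose replicate 2 or 3 or 25 mM glucose replicate 1 or 2 was left out. In each of those fits 0 genes of the whole table passed. Without 5 mM glucose replicate 1, 29 pathway genes passed, against 26.6% of all genes.

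By role, the desaturation list had a median of -0.91 with 5 of 6 genes below 0, and its largest value was that of Fads3 (-1.31 ± 0.31, FDR 0.0627), a neighbour of the Fads1 and Fads2 cluster. The list of uptake and fatty acid binding genes had a median of -0.94 with 7 of 8 below 0. The 9 transcriptional regulators tested had a median of -0.49 with 8 below 0. The exception was Ppara, a nuclear receptor that responds to fatty acids, with 1.12, 1.403 and 1.83 CPM at 5 mM and 4.47, 5.80 and 3.12 CPM at 25 mM (1.62 ± 0.34, FDR 0.0525). The remaining elongation genes had a median of -0.35 with 7 of 9 below 0, and the largest value was that of Elovl1, an elongase of saturated chains (-0.90 ± 0.26, FDR 0.0826). The peroxisomal genes, which shorten the DHA precursor, had a median of -0.20 with 5 of 9 below 0, and the largest value was that of the transporter Abcd2 (0.60 ± 0.32, FDR 0.239). The acyl-CoA synthesis list had a median of -0.38 with 6 of 8 below 0. Its largest value belonged to the rare Acsbg1, a synthetase of long chain fatty acids, with 0.686, 2.65 and 2.30 CPM at 5 mM and 0.162, 0.192 and 0.475 CPM at 25 mM (-2.73 ± 0.62, FDR 0.0594). The phospholipid acyltransferases had a median of -0.32 with 10 of 15 below 0, led by Agpat4 (-1.20 ± 0.35, FDR 0.0824). Elovl4, Elovl2, Acsl6 and Lpcat1 were thus higher at 25 mM while most other tested genes of the same roles had negative values, a difference that was not tested.

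**Figure D4:**
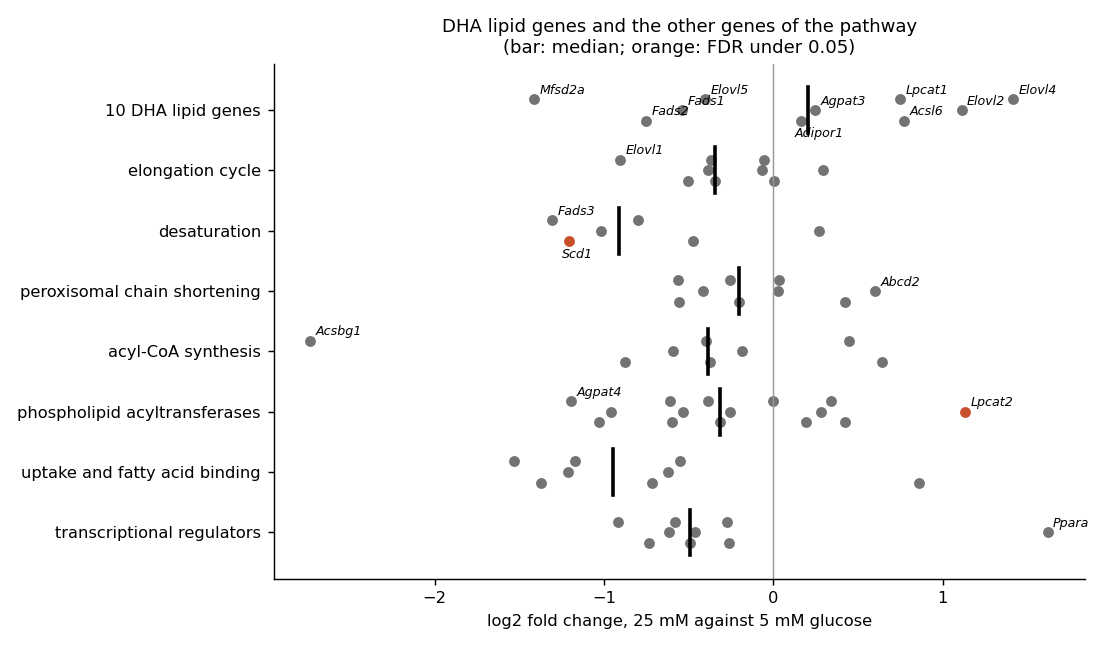
Log2 fold change (x axis, 25 mM against 5 mM glucose) of the 10 DHA lipid genes and of the 64 other pathway genes tested, in rows by role; points are genes, black bars the median of a row, and orange points passed an FDR under 0.05. The medians of the 7 lists lie between -0.94 and -0.20, and that of the 10 genes at 0.21.

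Marker genes of retinal cell types were measured beside these results. In bulk tissue, fewer cells of a type and less RNA per cell cannot be told apart. The summed level of 12 rod photoreceptor markers was 3248 to 5766 CPM at 5 mM and 7192 to 9445 CPM at 25 mM. All 12 were above 0 and 6 were called (1.98% of all genes), and Gnat1, among the most abundant, overlapped between the groups. The paired libraries differed widely in this sum, with 6571 and 12892 CPM in 25 mM glucose replicate 1 and 11509 and 4902 CPM in replicate 2. Other pairs were closer, such as 7502 and 8825 CPM in 25 mM glucose replicate 3. Per 1000 CPM of these markers, Elovl4 had 51.9, 16.4 and 19.2 CPM at 5 mM and 44.5, 42.7 and 28.8 CPM at 25 mM, which overlapped because 5 mM glucose replicate 1 was the highest. On the same scale Elovl2 had 8.43, 3.70 and 3.38 CPM at 5 mM and 6.45, 5.68 and 4.99 CPM at 25 mM. Acsl6 had 31.2, 18.4 and 18.5 CPM per 1000 CPM at 5 mM and 22.3, 20.6 and 19.2 CPM at 25 mM. Lpcat1 had 13.3, 8.55 and 9.59 at 5 mM and 11.2, 8.56 and 8.63 at 25 mM. All 4 genes overlapped between the concentrations on this scale, and 5 mM glucose replicate 1, with the lowest rod sum, was the highest sample each time. The other 5 mM replicates of Elovl4, Elovl2 and Acsl6 lay below every replicate at 25 mM, whereas those of Lpcat1 still overlapped. Fads1, Fads2 and Elovl5 were not set against the rod markers, and which cells the RNA came from was not tested.

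The 10 vascular endothelial markers summed to 1116 to 2085 CPM at 5 mM and 496 to 989 CPM at 25 mM, with 9 of 10 below 0, 0 called and 7 lower at an unadjusted p under 0.05; of the most abundant, Pecam1 had a log2 fold change of -1.94 ± 0.51 (FDR 0.0732) and Kdr one of -0.03 ± 0.17. Mfsd2a had 0.939, 1.12 and 0.898 CPM per 1000 CPM of these markers at 5 mM and 0.514, 0.722 and 1.12 CPM at 25 mM, and the groups overlapped on this scale too. Pigment epithelium markers, of which 7 of 10 were tested, summed to 5.95 to 9.15 CPM at 5 mM and 4.73 to 5.79 CPM at 25 mM, led by Dct and Ttr, with 0 called and 1 in each direction at an unadjusted p under 0.05. Mueller glia markers (Glul and Slc1a3 the most abundant) summed to 2257 to 2458 and 2032 to 2504 CPM, microglial markers (C1qb among the most abundant) to 303 to 443 and 127 to 254 CPM, and inner retinal neuron markers (Trpm1 the most abundant) to 1220 to 1223 and 941 to 1185 CPM, each with 0 genes called and, at an unadjusted p under 0.05, 2 higher and 2 lower, 7 lower, and 3 lower. Over all genes tested, 28.7% had an unadjusted p under 0.05, in either direction. None of the markers was at 0 counts in all libraries. The part of cell composition in the differences of the 10 genes was not tested beyond these ratios.

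**Figure D5:**
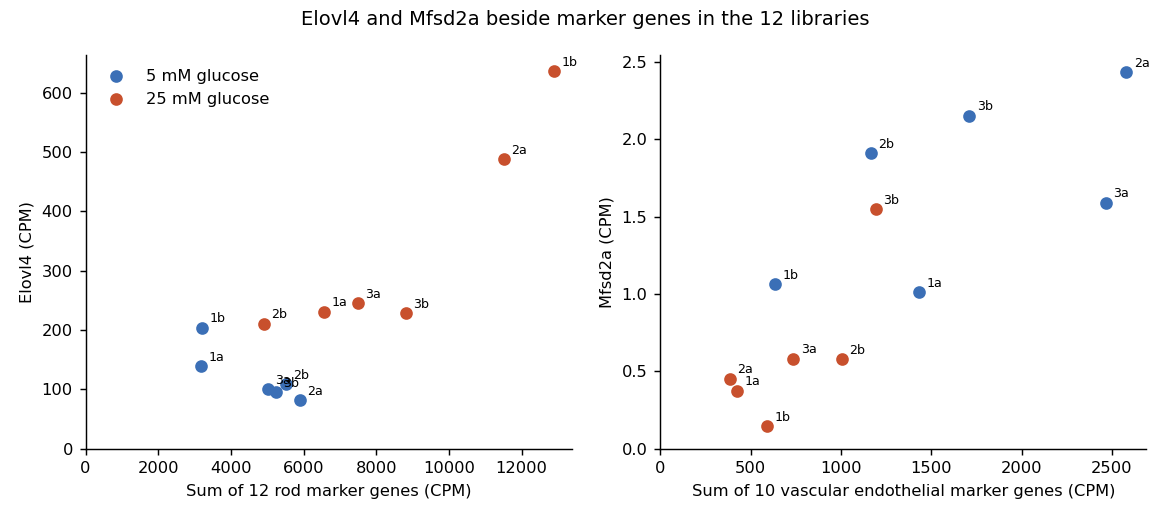
Elovl4 against the summed rod markers (left) and Mfsd2a against the summed vascular endothelial markers (right), both in CPM with axes from 0; points are the 12 libraries, numbered by biological replicate and lettered by technical replicate (a, batch 1; b, batch 2). The 2 libraries highest in Elovl4 (637 and 489 CPM) are the 2 highest in rod markers, and the library highest in Mfsd2a (2.43 CPM) is the highest in endothelial markers (2580 CPM). Other points go the other way. The 2 libraries lowest in rod markers (1a and 1b at 5 mM, 3186 and 3215 CPM) are the highest of the 5 mM libraries in Elovl4 (139 and 204 CPM). Library 1b at 5 mM had 635 CPM of endothelial markers and 1.06 CPM of Mfsd2a, and 2b at 25 mM had 1008 and 0.580 CPM.

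Base composition also moved with the comparison. The median log2 fold change of all genes was 0.41 among genes with a GC content under 42%, 0.15 from 42% to 46%, 0.03 from 46% to 50%, -0.18 from 50% to 54% and -0.47 over 54%. Elovl4 (43.3% GC), Elovl2 (44.3%) and Elovl5 (44.9%) belong to the second of these classes, Acsl6 (47.1%) to the third, Adipor1 (51.6%), Fads1 (52.2%) and Lpcat1 (52.2%) to the fourth, and Mfsd2a (54.3%), Fads2 (54.4%) and Agpat3 (54.7%) to the last. Elovl5, Lpcat1, Adipor1 and Agpat3 thus lay on the side opposite to the median of their class. After correction for GC content and length, 7 of the 10 genes passed an FDR under 0.05, against 13.4% of all genes, and the share of higher genes among all called was 49.7% in place of 74.1%. Elovl4 then had a log2 fold change of 1.25 (FDR 0.0141), Elovl2 of 0.99 (0.0234), Lpcat1 of 0.93 (0.0250), Acsl6 of 0.75 (0.0270), Agpat3 of 0.69 (0.0473), Elovl5 of -0.55 (0.0412) and Fads2 of -0.44 (0.0398). Fads1 (-0.36, FDR 0.0516), Mfsd2a (-1.11, FDR 0.131) and Adipor1 (0.32, FDR 0.116) did not pass. All 10 kept their direction, and the median of the 10 genes was 0.51.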

How the data were processed

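RNA-seq libraries of retinal explants were prepared from total RNA with a stranded kit for low inputs and read in pairs. The authors deposited estimated counts (expected counts, mostly not whole) per gene and per transcript, without normalization between libraries. GRCm38 is named in the submitters' processing notes; the aligner, counting tool, annotation and use of strand are not given in the sources used here. Gene values were not the sums of the transcript values of the same gene, and may carry a length scaling. Library totals lay between 14815285 and 36692484, and intervals cover the spread between replicates, not PCR duplication. No columns were left unused.

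Technical replicates were summed per biological replicate and rounded. Genes were filtered with filterByExpr, scaled by TMM and tested by edgeR 4.0.16 (quasi-likelihood, its version 3 method; R 4.3.3), 3 against 3 samples without a block, with Benjamini-Hochberg adjustment over 21061 genes. Log2 CPM used a prior count of 2. Biological variation was 0.297 (coefficient). Symbols, lengths and GC content came from GENCODE M21 (90.8% of gene identifiers and 92.0% of transcripts matched), promoters from RefSeq. The procedure was tested on simulated data.

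The members and lists were chosen with earlier results of these data known. Named were all 10 members, pathway genes at an FDR under 0.05 or with the largest absolute change of their list, and the 2 most abundant markers of each list with any at 0. Some genes that this rule names are not reported here. Alternatives covered RLE factors, library totals, DESeq2 1.42.0, limma-voom 3.58.1, the newer edgeR method, other filters, 12 separate libraries, single batches, equal depth, a replicate block, GC and length correction, transcript sums and replicates left out; leaving out 2 single libraries, and the alternatives for the count without overlap, were added after seeing the data. Plots used matplotlib 3.10.9 under Python 3.11.15.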

Additional observations from a re-analysis of the deposited data

Results flagged for a closer look

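Of 20 sets of 6 libraries (each gene at each concentration), 1 held a library far from the others by Dixon's criterion (gap over range above 0.625), and chance alone would give about 1. It was Mfsd2a in the second technical replicate of 25 mM glucose replicate 3, with 1.55 CPM, where the other 5 libraries had 0.145 to 0.581 CPM and the gap took 0.689 of the range. The same library had 1194 CPM of summed vascular endothelial markers, the highest of the 25 mM libraries. No difference between the batches in the effect of glucose passed an FDR under 0.05 for any of the 10 genes.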

How the results depend on the processing

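The number of the 10 genes at an FDR under 0.05 was 0 in the comparison as reported, against 1.98% of all genes. It was 1 with library totals (2.18% of all genes), 6 with DESeq2 (15.2%) and 3 with no filter (5.63%). A minimum of 10 counts in every replicate gave 1 (2.30%). With 12 separate libraries and a batch term it was 7 (15.6%), in batch 1 it was 7 (17.3%). GC and length correction gave 7 (13.4%), and leaving out the second library of 5 mM glucose replicate 1 gave 3 (8.27%). It remained 0 with RLE factors, limma-voom, the newer edgeR method, equal depth, transcript sums, batch 2, and without the second library of 25 mM glucose replicate 1. Leaving out 1 replicate gave 0 to 6. At the stricter thresholds it was 2 with DESeq2 (1442 genes in the whole table), 1 with no filter (275) and 1 in batch 1 (367). Over the whole table, 417 calls became 3274 with DESeq2, 1979 with no filter, 2918 with 12 libraries, 3279 in batch 1, 0 in batch 2, 2728 with GC and length correction, 1731 without the second library of 5 mM glucose replicate 1 and 194 without that of 25 mM glucose replicate 1; leaving out 1 replicate gave 0 to 5845. Pathway calls, 2 as reported, were 17 with DESeq2, 4 with the newer edgeR method, 12 with no filter, 17 with 12 libraries, 19 in batch 1, 0 in batch 2, 17 with GC and length correction, and 10 and 0 without the 2 single libraries; leaving out 1 replicate gave 0 to 29. The median log2 fold change of the 10 genes, 0.2071, was 0.5053 with GC and length correction and lay between -0.0219 and 0.4122 with 1 replicate left out. In batch 2 alone 3 genes had no overlap (16.1% of all genes), in place of 7 (31.8%). Reversed values were -0.0607 for Adipor1 in batch 1, and for Agpat3 -0.0339 in batch 2 and -0.0546 without 5 mM glucose replicate 1 (-0.0546 to 0.5804 with any 1 replicate left out). The causes were not tested. The other 8 genes kept their direction in all 23 alternatives: Elovl4 (1.115 to 1.735) was called in 12 of them, Elovl2 in 9, Acsl6 in 8, Lpcat1 in 5, Fads1 and Fads2 in 4 each, and Elovl5 and Mfsd2a in 3 each.

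The replicate numbers are shared by the 2 concentrations, but same-numbered samples correlated with -0.0138, -0.449 and 0.285 in their deviations from the group means, and not every sample correlated best with its own number, so the numbers were not taken as pairs. With the replicate block, the calls were 2 of the 10 genes (Elovl4 and Elovl2), 6 pathway genes and 990 genes of the table (4.70%). With the block and GC and length correction they were 5 of the 10 genes, 20 pathway genes and 3151 of the table (15.5%). In that setting 1 of the 10 genes passed the stricter thresholds (488 in the whole table, 2.40%), and the median of the 10 genes was 0.5201. Estimates rest on 3 samples a group, and Mfsd2a on few counts.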
